A study of Mus musculus with 12 samples.

Results

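This set holds 98 mouse genes whose signal was lower in macrophages stimulated with lipopolysaccharide (LPS) and interferon gamma (IFNγ) than in control cells, and higher again when emodin was present during the stimulation. A gene entered when its mean log2 signal with LPS and IFNγ lay at least 1.5 below the control mean, and when its mean with emodin added lay at least 1.5 above the mean with LPS and IFNγ alone. On the linear scale 1.5 is 2.83-fold. The probe also had to be well above background on all control and all emodin arrays, which 11116 of 19699 named genes met. Of these, 528 met the limit on the fall and 383 the limit on the rise. The 98 genes met both, and 430 others met the limit on the fall but not that on the rise. Mrc1 and the genes with symbols beginning Bex or Tceal were left out by the rule. The genes were chosen by these 2 measured differences, which are therefore given below as descriptions with no test, while the level with emodin against control was compared in a fit over all genes. That difference is the sum of the 2 others and rests on the same arrays, so its calls and p-values say how far a gene lay from control against the spread of the arrays, and are not independent of how the genes were chosen.

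The study compared 3 groups of 4 arrays, all from wild-type C57BL/6 mice and labelled as peritoneal macrophage, although the series design text names WBC PMN samples, where PMN is the usual short form for polymorphonuclear cells such as neutrophils. The samples' own label is kept here. LPS_IFNg_emodin cells received LPS (100 ng/ml), IFNγ (20 ng/ml) and emodin (50 µM), LPS_IFNg cells received the same LPS and IFNγ without emodin, and control cells received vehicle. All were taken at 20 hours. The mice of both stimulated groups are labelled as 9 weeks old and female, and those of the control group as 8 weeks old, 2 female and 2 male. Emodin is an anthraquinone found in plants such as rhubarb, and the series title gives inhibition of the classical activation of macrophages as its subject. No group received emodin without stimulation, so every value with emodin is from stimulated cells. The design text calls the 4 arrays of a group biological replicates, and no label ties one to a single animal, so the p-values reflect only how these samples vary, which may be technical.

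LPS binds Toll-like receptor 4 and IFNγ binds its own receptor, and together they drive classical activation, in which a macrophage makes inflammatory cytokines and nitric oxide. The same switch is known to lower many genes of the resting cell, among them receptors, lipid-handling genes and growth factors. Peritoneal macrophages are long-lived cells of the abdominal cavity that take up dying cells, handle lipids and secrete factors that maintain tissue.

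Some features of the arrays touch every comparison with control. The control arrays were on one slide with one scan time and the 8 stimulated arrays on another, so slide, age and stimulation cannot be told apart in any difference from control. The Y-linked genes Ddx3y and Eif2s3y were well above background on LPS_IFNg_emodin replicate 3 and LPS_IFNg replicate 3, which are labelled female, and on none of the control arrays, 2 of which are labelled male. Thus 4 arrays go against their sex labels. Without both arrays numbered 3 the rule gave 90 genes, 84 of them among the 98. The 75th percentile of signal was 370 to 466 with emodin, 637 to 795 with LPS_IFNg and 633 to 810 in control, and every log2 value below has that percentile of its own array subtracted. In RNA from a culture, fewer cells of a type and less RNA per cell cannot be told apart.

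The 98 genes were much lower in stimulated cells and came close to control level with emodin, although many stayed below it or rose above it. Averaged over the genes and set against the control mean, the log2 level was -0.48, -0.51, -0.36 and -0.46 on the LPS_IFNg_emodin arrays, -2.54, -2.86, -2.86 and -2.58 on the LPS_IFNg arrays and 0.03, 0.04, 0.00 and -0.06 on the control arrays. Every LPS_IFNg_emodin array lay between the other groups, and nearer to control. The fall with LPS and IFNγ had a median of -2.40 over the genes and ran from -7.62 for Cmbl to -1.504 for C77080. Cmbl was well above background on no LPS_IFNg array, so the size of its fall is uncertain. The rise with emodin had a median of 2.03 and ran from 1.52 for Gm4788 to 6.03 for Pgm5. The rise was 84.9% of the size of the fall in the median gene, and from 30.9% to 375% over the genes. The lowest share was that of Mctp1, which was well above background on only 1 LPS_IFNg array. Its second probe, also above background on only 1 of them, had a fall of -3.78 and a rise of 3.06.

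**Figure D1:**
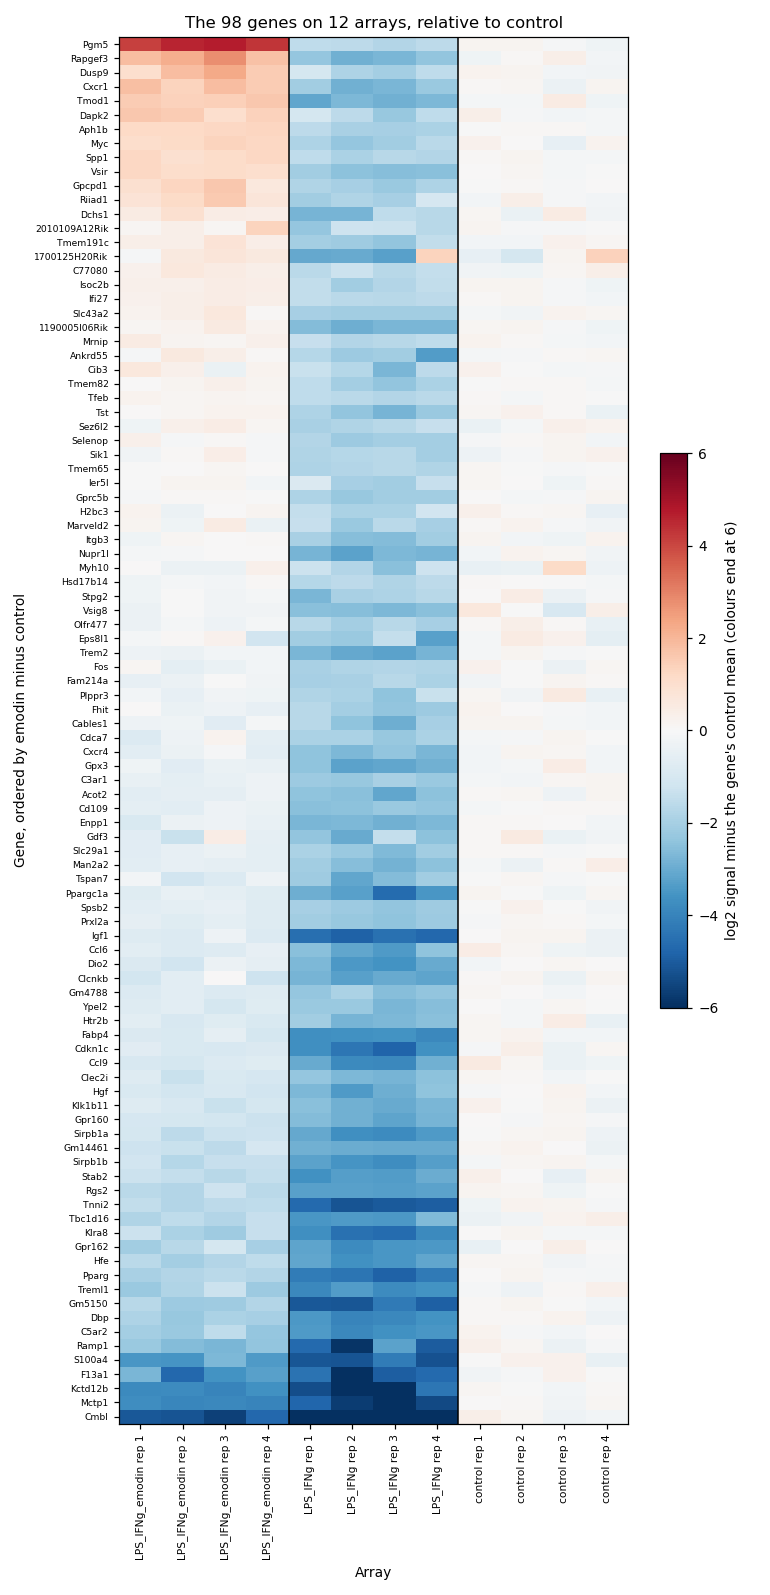
Log2 signal of the 98 genes (down the page, ordered by LPS_IFNg_emodin minus control) on the 12 arrays (LPS_IFNg_emodin, LPS_IFNg and control from left to right), each relative to the gene's control mean. The LPS_IFNg columns are blue for nearly every gene, while the LPS_IFNg_emodin columns run from red at the top (Pgm5) to blue at the bottom (Cmbl).

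The arrays of the groups separated for nearly all of the genes, as the rule makes likely. All 4 LPS_IFNg arrays lay below all control arrays for 97 of 98 genes, against 32.5% of all 12733 genes tested, and all 4 LPS_IFNg_emodin arrays lay above all LPS_IFNg arrays for 96, against 32.7% of all genes. All 98 were called higher in LPS_IFNg_emodin than in LPS_IFNg, where 72.1% of all genes were called, 34.8% higher and 37.3% lower. In LPS_IFNg against control 97 were called lower, where 69% of all genes were called, 34.2% higher and 34.9% lower. Nothing is read from these counts, since the rule used both differences. 1700125H20Rik failed to separate in both comparisons, as its LPS_IFNg array 4 read -1.16, while the other LPS_IFNg arrays read -5.55, -5.50 and -5.73. F13a1 failed only with emodin, as its LPS_IFNg_emodin array 2 at -3.34 lay below LPS_IFNg arrays 1 and 4 at -3.04 and -3.27.

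**Figure D2:**
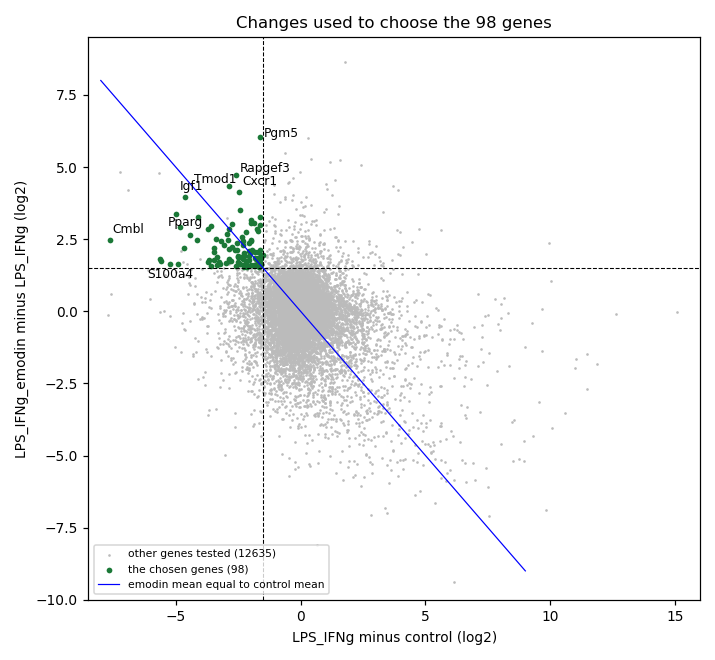
Difference between LPS_IFNg and control (horizontal axis, log2) against the difference between LPS_IFNg_emodin and LPS_IFNg (vertical axis, log2) for 12733 genes, with the 98 genes in green, the limits of the rule dashed and the line on which the emodin mean equals the control mean in blue. The green points lie on both sides of the blue line, with Pgm5 far above it and Cmbl far below it. Grey points beyond both limits are genes that missed the background filter of the rule or were left out by name.

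The limits fell within a continuous spread of values. Just inside the limit on the fall were C77080 at -1.504, Mrnip at -1.58 and Ifi27 at -1.59, and just outside it were Plin2 at -1.497, Cdkl3 at -1.47 and Vav3 at -1.43. Just inside the limit on the rise were Gm4788 at 1.52, Spsb2 at 1.53 and Hsd17b14 at 1.54, and just outside it St8sia4 at 1.499, Sorbs3 at 1.49 and Klra9 at 1.48. The 4 genes left out by name would have met both limits, with a rise of 3.23 for Mrc1, 4.78 for Bex1, 1.73 for Bex3 and 4.83 for Tceal7.

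"Silenced" fits only some of the genes. After stimulation, 67 of the 98 were still well above background on all 4 LPS_IFNg arrays, 21 on 1 to 3 of them and 10 on none. Trem2, for one, still read between 5.91 and 6.35 on the LPS_IFNg arrays and was well above background on all of them. The 10 genes without a single LPS_IFNg array well above background were 2010109A12Rik, Ankrd55, Cmbl, Dchs1, Myh10, Plppr3, Riiad1, Stab2, Stpg2 and Tbc1d16. Their LPS_IFNg level is only an upper limit, so their differences are bounds. The dim level was taken on each array as the lowest signal of any probe well above background there, or as the probe's own signal where that was higher. By this bound, Cmbl signal was at least 3.41-fold higher in LPS_IFNg_emodin than in LPS_IFNg, and at least 120.5-fold higher in control than in LPS_IFNg. For Stab2 the bounds were at least 2.72-fold for LPS_IFNg_emodin over LPS_IFNg and at least 7.44-fold for control over LPS_IFNg. Of these 10 genes, Cmbl was the only one whose bounds passed both limits of the rule, 3 passed the limit on the fall and 2 the limit on the rise. For the 21 genes with 1 to 3 such arrays, the LPS_IFNg mean includes dim readings, so the sizes of their falls and rises are uncertain too.

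"Restored" also holds only in part. Of the 98 genes, 47 (48.0%) were called lower with emodin than in control cells, against 39.3% of all genes tested, 19 (19.4%) were called higher, against 39% of all genes, and 32 were called neither way (limma, adjusted p under 0.05). Over all genes 78.4% were called in this comparison. These calls are relative to the 75th percentile of each array: scaled to the spike-in RNAs, 97 of the 98 were called lower and 1 higher. The difference was 2-fold or more for 25 of the lower and 12 of the higher genes. Its median over the 98 genes was -0.36 on the log2 scale, against 0.00 over all genes. The level with emodin was within 2-fold of control for 61 of the 98 (62.2%), and for 61.3% of all genes. These shares lie close together. All 4 LPS_IFNg_emodin arrays lay above all control arrays for 16 genes (36.2% of all genes) and below all of them for 45 (36.3% of all genes). Neither share has a test of its own.

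**Figure D3:**
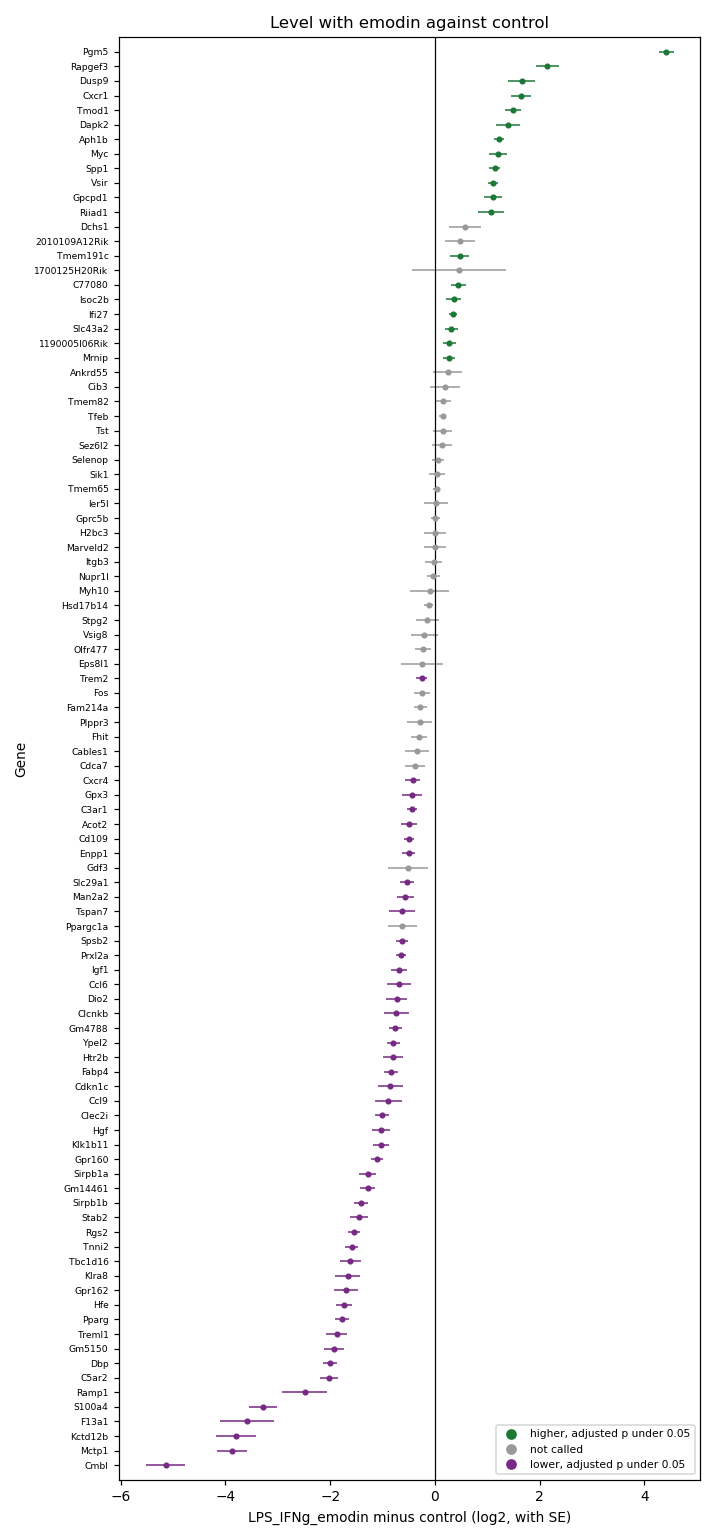
LPS_IFNg_emodin minus control (log2, horizontal axis) for each of the 98 genes, with its standard error from the fit to 12 arrays, coloured by its call. Pgm5 (4.42) and Rapgef3 (2.15) stand at the top, Cmbl (-5.14) at the bottom, and 32 genes in the middle were not called.

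Below, genes are grouped by role, array values are given in the order of replicates 1 to 4, and a difference from control is LPS_IFNg_emodin minus control on the log2 scale ± its standard error in the fit. The counts of calls in each role group are to be read beside the shares of all genes, 39.3% lower and 39% higher. No role group was tested as a set. Among 6 genes for nuclear factors, 1 was called higher than control with emodin, 2 lower and 3 neither way. Pparg encodes the nuclear receptor that binds fatty acid derivatives and drives fat storage genes, and in macrophages it is linked to alternative activation. Its log2 signal was 3.54, 3.73, 3.87 and 3.72 on the LPS_IFNg_emodin arrays, 1.28, 1.09, 0.66 and 1.26 on the LPS_IFNg arrays and 5.52, 5.65, 5.42 and 5.37 on the control arrays. The emodin arrays stood between the other groups with no overlap, and Pparg was lower than in control cells, a difference of -1.78 ± 0.13 (adjusted p = 1.18e-07). Ppargc1a, the coactivator of mitochondrial biogenesis that works with nuclear receptors such as Pparg, read -1.54, -1.23, -1.37 and -1.503 on the LPS_IFNg_emodin arrays, -3.71, -4.03, -5.41 and -4.28 on the LPS_IFNg arrays and -0.62, -0.83, -1.03 and -0.67 on the control arrays. The LPS_IFNg arrays were the lowest, and array 3 stood below the others. Only 1 of these arrays was well above background for Ppargc1a, so the sizes of its fall and rise are uncertain. With emodin Ppargc1a was below all control arrays, but its difference of -0.62 ± 0.28 (adjusted p = 0.0629) was not called.

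Tfeb, the transcription factor that switches on lysosome genes, came back to control closely. It read 2.35, 2.30, 2.32 and 2.30 on the LPS_IFNg_emodin arrays, 0.63, 0.54, 0.41 and 0.53 on the LPS_IFNg arrays and 2.22, 2.05, 2.25 and 2.14 on the control arrays. All emodin arrays lay just above all control arrays, with a difference of 0.15 ± 0.07 (adjusted p = 0.0565), which was not called. Myc, a growth-promoting factor that is also listed among alternative activation genes, read 1.32, 1.39, 1.602 and 1.498 on the LPS_IFNg_emodin arrays, -1.61, -2.08, -1.83 and -1.36 on the LPS_IFNg arrays and 0.52, 0.28, -0.25 and 0.44 on the control arrays. Here the emodin arrays were the highest of the 3 groups, and the difference from control was 1.21 ± 0.18 (adjusted p = 5.48e-05). Fos, a subunit of the AP-1 factor and an early response gene, read 1.42, 0.75, 0.94 and 1.15 on the LPS_IFNg_emodin arrays, -0.65, -0.50, -0.42 and -0.50 on the LPS_IFNg arrays and 1.56, 1.31, 0.96 and 1.45 on the control arrays. The emodin and control arrays overlapped, a difference of -0.25 ± 0.15 (adjusted p = 0.146). Dbp, an output factor of the circadian clock that peaks at one time of day, read 0.99, 0.56, 0.93 and 0.86 on the LPS_IFNg_emodin arrays, -0.60, -1.12, -1.02 and -0.74 on the LPS_IFNg arrays and 2.89, 2.89, 3.03 and 2.54 on the control arrays. It stayed clearly below control with emodin, with a difference of -2.004 ± 0.14 (adjusted p = 7.37e-08), with no overlap.

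Secreted proteins made up 9 of the genes, 6 of them called lower than control with emodin, 1 higher and 2 neither way. Igf1, the growth factor that macrophages supply to repairing tissue, had the largest recovery of the set by the smaller of its fall and rise, on its brightest probe, while 2 further probes, given below, stayed far below control. It read 4.81, 4.75, 5.28 and 4.76 on the LPS_IFNg_emodin arrays, 1.08, 0.73, 1.09 and 0.89 on the LPS_IFNg arrays and 5.62, 5.75, 5.73 and 5.23 on the control arrays. LPS_IFNg_emodin array 3 reached into the control range and the other emodin arrays did not, and the difference from control was -0.68 ± 0.15 (adjusted p = 0.00114). Spp1 encodes osteopontin, a secreted ligand of integrins. Its values were 8.22, 7.97, 8.12 and 8.23 on the LPS_IFNg_emodin arrays, 5.45, 5.09, 5.32 and 5.21 on the LPS_IFNg arrays and 7.09, 7.14, 6.89 and 6.86 on the control arrays. All emodin arrays lay above all control arrays, a difference of 1.14 ± 0.10 (adjusted p = 4.6e-07).

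The CC chemokines Ccl6 and Ccl9 are neighbours on chromosome 11 and moved alike. Ccl6 read 6.60, 6.44, 6.47 and 6.76 on the LPS_IFNg_emodin arrays, 4.74, 4.12, 3.88 and 4.84 on the LPS_IFNg arrays and 7.72, 7.39, 7.02 and 6.90 on the control arrays. Ccl9 read 5.17, 5.06, 5.33 and 5.43 on the LPS_IFNg_emodin arrays, 3.12, 2.31, 2.26 and 3.26 on the LPS_IFNg arrays and 6.68, 6.25, 5.72 and 5.89 on the control arrays. In both genes the LPS_IFNg arrays 2 and 3 were the lowest, and the emodin arrays lay between the other groups. The difference from control was -0.69 ± 0.23 (adjusted p = 0.0156) for Ccl6 and -0.89 ± 0.26 (adjusted p = 0.00729) for Ccl9. Hgf, the hepatocyte growth factor, read -1.63, -1.79, -1.65 and -1.86 on the LPS_IFNg_emodin arrays, -3.39, -4.09, -3.64 and -3.11 on the LPS_IFNg arrays and -0.76, -0.69, -0.51 and -0.85 on the control arrays. It stayed below every control array with emodin, with a difference of -1.03 ± 0.17 (adjusted p = 0.000132).

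**Figure D4:**
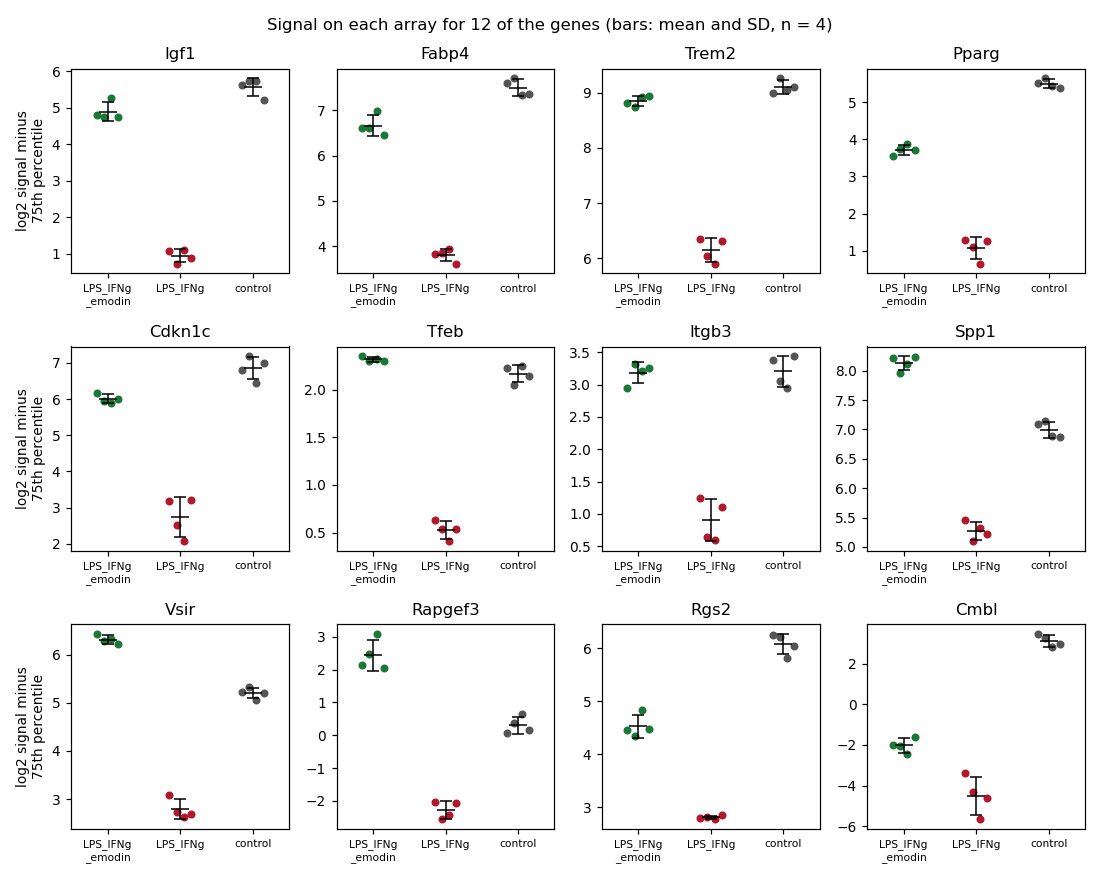
Log2 signal minus the array's 75th percentile (vertical axis, scales differ between panels) on each array for 12 genes, with LPS_IFNg_emodin, LPS_IFNg and control from left to right and the mean ± SD of 4 arrays. Tfeb and Itgb3 return to about the control level, Spp1, Vsir and Rapgef3 pass it, and Pparg, Rgs2 and Cmbl stay below it.

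Antioxidant and clotting proteins lay at control level or below it. Selenop, the plasma protein that carries selenium to tissues, read 6.59, 6.21, 6.37 and 6.24 on the LPS_IFNg_emodin arrays, 4.52, 4.10, 4.28 and 4.28 on the LPS_IFNg arrays and 6.23, 6.38, 6.46 and 6.11 on the control arrays. Emodin and control arrays overlapped, and the difference was 0.06 ± 0.12 (adjusted p = 0.648). Gpx3, the secreted glutathione peroxidase, had a difference from control of -0.44 ± 0.19 (adjusted p = 0.0468). F13a1, the A subunit of clotting factor XIII and a marker of some tissue macrophages, read -1.37, -3.34, -2.21 and -1.89 on the LPS_IFNg_emodin arrays, -3.04, -5.51, -3.59 and -3.27 on the LPS_IFNg arrays and 1.18, 1.30, 1.66 and 1.38 on the control arrays. Its replicates were spread widely within both stimulated groups, and array 2 was the lowest in each. The 2 groups overlapped, as LPS_IFNg_emodin array 2 lay below LPS_IFNg arrays 1 and 4. F13a1 stayed far below control with emodin, with a difference of -3.59 ± 0.51 (adjusted p = 4.11e-05). Gdf3, a member of the transforming growth factor beta superfamily, was not called, a difference of -0.52 ± 0.39 (adjusted p = 0.241).

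Receptors that couple to G proteins, with their partners, gave 12 genes. With emodin 8 were called lower than control, 2 higher and 2 neither way. Rapgef3 encodes EPAC1, which senses cyclic AMP downstream of such receptors and activates the small GTPase Rap1. Its values were 2.14, 2.49, 3.099 and 2.06 on the LPS_IFNg_emodin arrays, -2.02, -2.57, -2.45 and -2.05 on the LPS_IFNg arrays and 0.07, 0.36, 0.64 and 0.15 on the control arrays. The emodin arrays were the highest, array 3 most of all, and exceeded control, with a difference of 2.15 ± 0.22 (adjusted p = 2.31e-06). Cxcr1, a receptor for interleukin 8 in humans that is best known from neutrophils, read 2.52, 2.04, 2.57 and 2.24 on the LPS_IFNg_emodin arrays, -1.38, -2.18, -2.02 and -1.54 on the LPS_IFNg arrays and 0.79, 0.80, 0.34 and 0.87 on the control arrays. It too was above every control array with emodin, a difference of 1.64 ± 0.19 (adjusted p = 6.71e-06).

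Most of the other receptors came back short of control. Cxcr4, the receptor of the chemokine Cxcl12, read 1.596, 1.88, 2.18 and 1.600 on the LPS_IFNg_emodin arrays, -0.18, -0.43, -0.11 and -0.52 on the LPS_IFNg arrays and 2.09, 2.40, 2.38 and 2.10 on the control arrays. LPS_IFNg_emodin array 3 overlapped the control range, and the difference was -0.43 ± 0.15 (adjusted p = 0.0178). C3ar1, the receptor of complement fragment C3a, read 3.30, 3.20, 3.34 and 3.47 on the LPS_IFNg_emodin arrays, 1.57, 1.47, 1.80 and 1.51 on the LPS_IFNg arrays and 3.63, 3.61, 3.89 and 3.92 on the control arrays. With emodin it lay just below all control arrays, with a difference of -0.44 ± 0.10 (adjusted p = 0.00168). C5ar2, the second receptor of complement fragment C5a, was much further from control, a difference of -2.02 ± 0.17 (adjusted p = 3.35e-07). Rgs2, which ends signalling by speeding up GTP hydrolysis in Gq, read 4.45, 4.34, 4.84 and 4.47 on the LPS_IFNg_emodin arrays, 2.80, 2.81, 2.77 and 2.85 on the LPS_IFNg arrays and 6.25, 6.20, 5.81 and 6.04 on the control arrays. Its LPS_IFNg arrays were almost identical, and with emodin it was lower than control, with a difference of -1.55 ± 0.12 (adjusted p = 1.27e-07).

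Ramp1, the membrane partner that makes the receptor of calcitonin gene-related peptide, read -0.23, -0.58, -0.73 and -0.38 on the LPS_IFNg_emodin arrays, -2.65, -3.86, -1.18 and -2.97 on the LPS_IFNg arrays and 2.30, 2.14, 1.66 and 1.93 on the control arrays. LPS_IFNg array 3 was the highest of its group, though below all emodin arrays, and the difference between emodin and control was -2.49 ± 0.42 (adjusted p = 0.000173). A second probe for Ramp1 gave a fall of -0.97 and a rise of 0.30, below both limits of the rule. The difference from control was -0.80 ± 0.19 (adjusted p = 0.00227) for the serotonin receptor Htr2b, -1.11 ± 0.11 (adjusted p = 1.92e-06) for the orphan receptor Gpr160 and -1.70 ± 0.23 (adjusted p = 2.15e-05) for the orphan receptor Gpr162. Gprc5b, another orphan receptor, was not called, a difference of 0.01 ± 0.09 (adjusted p = 0.953), and neither was the olfactory receptor gene Olfr477, with a difference of -0.22 ± 0.15 (adjusted p = 0.195).

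The 13 other surface proteins had 10 called lower than control with emodin, 1 higher and 2 neither way, where 39.3% of all genes were called lower and 39% higher. Trem2, a receptor for lipids and apoptotic cells that signals through the adaptor DAP12, is a surface marker of several macrophage types. It read 8.80, 8.74, 8.92 and 8.93 on the LPS_IFNg_emodin arrays, 6.35, 6.04, 5.91 and 6.32 on the LPS_IFNg arrays and 9.00, 9.26, 9.04 and 9.10 on the control arrays. The emodin arrays lay just under the control arrays, and the difference of -0.25 ± 0.11 (adjusted p = 0.0478) passed the threshold narrowly. Treml1, its neighbour on chromosome 17 and best known from platelets, read -2.29, -1.86, -1.37 and -2.26 on the LPS_IFNg_emodin arrays, -3.94, -3.44, -3.84 and -3.68 on the LPS_IFNg arrays and -0.12, -0.37, 0.00 and 0.22 on the control arrays. In contrast to Trem2 it was far below control with emodin, a difference of -1.87 ± 0.20 (adjusted p = 3.1e-06).

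Itgb3, the integrin subunit that with the alpha V chain binds osteopontin and apoptotic cells bridged by Mfge8, read 2.96, 3.32, 3.21 and 3.26 on the LPS_IFNg_emodin arrays, 1.25, 0.65, 0.60 and 1.10 on the LPS_IFNg arrays and 3.38, 3.06, 2.95 and 3.44 on the control arrays. Emodin and control arrays overlapped, with a difference of -0.02 ± 0.16 (adjusted p = 0.907). A second Itgb3 probe had a fall of -0.53, short of the limit, and a rise of 2.19. On that probe the level with emodin was above control, with a difference of 1.66. Vsir encodes VISTA, an inhibitory ligand for T cells. Its values were 6.43, 6.28, 6.32 and 6.22 on the LPS_IFNg_emodin arrays, 3.09, 2.73, 2.64 and 2.69 on the LPS_IFNg arrays and 5.22, 5.33, 5.06 and 5.19 on the control arrays. With emodin it was above all control arrays, a difference of 1.11 ± 0.10 (adjusted p = 8.71e-07), and its second probe gave 0.76.

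Stab2, a scavenger receptor for hyaluronan, read -2.32, -2.51, -2.71 and -2.48 on the LPS_IFNg_emodin arrays, -4.69, -4.38, -4.40 and -4.05 on the LPS_IFNg arrays and -0.74, -1.05, -1.56 and -0.87 on the control arrays. All emodin arrays were below all control arrays, with a difference of -1.45 ± 0.18 (adjusted p = 9.48e-06). Sirpb1a and Sirpb1b, activating relatives of the receptor for CD47, lie side by side on chromosome 3 and are near-identical, so their probes may share signal and they cannot be counted as independent. Their differences from control were -1.28 ± 0.16 (adjusted p = 1.42e-05) and -1.41 ± 0.14 (adjusted p = 1.19e-06). Klra8 belongs to another family of close copies, the Ly49 receptors, and is uncertain for the same reason, and its difference from control was -1.67 ± 0.23 (adjusted p = 3.27e-05). Hfe, which regulates iron uptake, stayed lower, with a difference of -1.73 ± 0.15 (adjusted p = 4.34e-07), and Cd109, a co-receptor for transforming growth factor beta, a difference of -0.50 ± 0.09 (adjusted p = 0.000278).

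Enzymes, carriers and transporters were the largest group with a role, 17 genes, of which 5 were called higher than control with emodin, 9 lower and 3 neither way. Fabp4 carries fatty acids in the cytoplasm and is a classic Pparg target. It read 6.62, 6.60, 6.99 and 6.45 on the LPS_IFNg_emodin arrays, 3.82, 3.85, 3.93 and 3.62 on the LPS_IFNg arrays and 7.61, 7.72, 7.33 and 7.36 on the control arrays. The emodin arrays stood between the groups, nearer to control, with a difference of -0.84 ± 0.13 (adjusted p = 6.44e-05). Dio2, which converts thyroxine to its active form, read 3.80, 3.51, 4.34 and 4.12 on the LPS_IFNg_emodin arrays, 1.95, 1.24, 1.11 and 1.66 on the LPS_IFNg arrays and 4.52, 4.71, 4.76 and 4.68 on the control arrays. It was closest to control on emodin array 3 and lower than control, a difference of -0.73 ± 0.20 (adjusted p = 0.00556). Enpp1, which hydrolyses ATP and cyclic GMP-AMP outside the cell, was lower, with a difference of -0.50 ± 0.13 (adjusted p = 0.00294).

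Pgm5, a relative of phosphoglucomutase found at cell contacts, was the extreme case of a rise past control. It read 2.56, 3.06, 3.17 and 2.78 on the LPS_IFNg_emodin arrays, -3.07, -3.12, -3.29 and -3.08 on the LPS_IFNg arrays and -1.39, -1.35, -1.58 and -1.80 on the control arrays. Every emodin array exceeded every control array, a difference of 4.42 ± 0.14 (adjusted p = 8.87e-11), or 21.4-fold. Its 2 other probes, well above background on all LPS_IFNg_emodin arrays and on none of the others, gave at least 12.1-fold and at least 6.90-fold higher signal in LPS_IFNg_emodin than in control, while no fall can be measured on them. Aph1b, a subunit of the gamma-secretase protease, read 6.84, 6.84, 6.87 and 6.94 on the LPS_IFNg_emodin arrays, 4.07, 3.71, 3.68 and 3.74 on the LPS_IFNg arrays and 5.61, 5.70, 5.74 and 5.55 on the control arrays. It was above control, with a difference of 1.22 ± 0.09 (adjusted p = 9.34e-08), whereas a second probe differed from control by -0.72. That probe had a fall of -1.09 and a rise of 0.36, short of both limits. Gpcpd1, which splits glycerophosphocholine, was higher, a difference of 1.11 ± 0.17 (adjusted p = 8.14e-05).

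At the other end stood Cmbl, a hydrolase expressed in liver and intestine. Its values were -1.98, -2.04, -2.47 and -1.603 on the LPS_IFNg_emodin arrays, -3.39, -4.32, -5.66 and -4.61 on the LPS_IFNg arrays and 3.47, 3.24, 2.82 and 2.96 on the control arrays. The emodin arrays were near the dim end of the measured range and far below control, with a difference of -5.14 ± 0.38 (adjusted p = 1.05e-07). Thus a rise past the limit left Cmbl with only a small part of its control signal. The nucleoside transporter Slc29a1 was lower than control, a difference of -0.54 ± 0.14 (adjusted p = 0.00306), and the amino acid transporter Slc43a2 was higher, with a difference of 0.32 ± 0.13 (adjusted p = 0.0383). Tst, the mitochondrial enzyme rhodanese, was not called, a difference of 0.15 ± 0.18 (adjusted p = 0.465). The mitochondrial acyl-CoA thioesterase Acot2 was lower, with a difference of -0.50 ± 0.15 (adjusted p = 0.011).

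Among 8 genes for the cytoskeleton, cell contact and calcium binding, 1 was called higher than control with emodin, 3 lower and 4 neither way. Tmod1, which caps the slow-growing end of actin filaments, read 0.74, 0.60, 0.68 and 0.83 on the LPS_IFNg_emodin arrays, -3.89, -3.47, -3.64 and -3.48 on the LPS_IFNg arrays and -0.91, -0.90, -0.27 and -1.01 on the control arrays. Its emodin arrays were the highest, a difference of 1.49 ± 0.15 (adjusted p = 2.08e-06). Tnni2, the inhibitory troponin of fast skeletal muscle, read 1.44, 1.17, 1.35 and 1.41 on the LPS_IFNg_emodin arrays, -1.75, -2.27, -2.11 and -2.03 on the LPS_IFNg arrays and 2.69, 3.12, 3.07 and 2.84 on the control arrays. It stayed below all control arrays, with a difference of -1.59 ± 0.12 (adjusted p = 1.83e-07). S100a4, a calcium-binding protein of motile cells, read 3.82, 3.74, 4.60 and 3.90 on the LPS_IFNg_emodin arrays, 2.18, 2.10, 3.105 and 2.08 on the LPS_IFNg arrays and 7.26, 7.55, 7.55 and 6.83 on the control arrays. Emodin recovered a small part of its signal, and it was lower than control, a difference of -3.28 ± 0.26 (adjusted p = 2.23e-07).

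The 10 genes of growth control and signalling divided evenly, with 3 called higher than control, 3 lower and 4 neither way. Cdkn1c encodes p57, an inhibitor of cyclin-dependent kinases. It read 6.18, 5.94, 5.90 and 6.01 on the LPS_IFNg_emodin arrays, 3.19, 2.53, 2.06 and 3.21 on the LPS_IFNg arrays and 6.81, 7.20, 6.45 and 6.99 on the control arrays. The emodin arrays lay just below the control arrays, with a difference of -0.85 ± 0.24 (adjusted p = 0.00612). Dusp9, a phosphatase of MAP kinases, read -0.75, 0.11, 0.52 and -0.25 on the LPS_IFNg_emodin arrays, -2.80, -3.59, -3.78 and -3.27 on the LPS_IFNg arrays and -1.56, -1.57, -1.92 and -1.95 on the control arrays. All emodin arrays were above all control arrays, a difference of 1.66 ± 0.26 (adjusted p = 0.000101), and the death-associated kinase Dapk2 was higher, with a difference of 1.39 ± 0.23 (adjusted p = 0.000141). Spsb2, an adaptor that marks the inducible nitric oxide synthase for degradation, was lower than control, a difference of -0.63 ± 0.11 (adjusted p = 0.000243). Sik1, a kinase of the salt-inducible family, was not called, with a difference of 0.04 ± 0.15 (adjusted p = 0.809).

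No role was assigned to the remaining 23 genes. With emodin 5 of them were called higher than control, 6 lower and 12 neither way. Gm5150 read -1.10, -1.58, -1.56 and -1.15 on the LPS_IFNg_emodin arrays, -4.52, -4.54, -3.66 and -4.32 on the LPS_IFNg arrays and 0.64, 0.74, 0.55 and 0.41 on the control arrays. Nupr1l read -1.03, -1.01, -0.91 and -0.90 on the LPS_IFNg_emodin arrays, -3.72, -4.15, -3.62 and -3.74 on the LPS_IFNg arrays and -1.09, -0.71, -0.79 and -1.14 on the control arrays. Each was well above background on only 1 LPS_IFNg array, so the sizes of their falls and rises are uncertain. Gm5150 stayed below control, a difference of -1.93 ± 0.19 (adjusted p = 1.33e-06), while Nupr1l overlapped with control with a difference of -0.03 ± 0.13 (adjusted p = 0.842). The largest shortfall in this group was that of Kctd12b, with a difference of -3.80 ± 0.38 (adjusted p = 1.66e-06).

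Other probes for the same genes mostly had the same signs, but often differed in size. Besides the brightest probe, 16 of the 98 genes had 1 further probe each well above background on all LPS_IFNg_emodin and all control arrays, as the rule asks. All 16 probes had the same signs for fall and rise, and 11 passed both limits. That filter asks for signal in the groups where the genes are high, so shared signs are likely and nothing is read from them. Among all 23 further probes above background on all arrays of 1 or more groups, 21 shared both signs and 13 passed both limits. The difference from control could still lie far apart between the brightest and the further probe. It was 1.22 and -0.72 for Aph1b, -0.02 and 1.66 for Itgb3, and -2.49 and -0.66 for Ramp1. For Mctp1 it was -3.87 and -0.72, and for C5ar2 -2.02 and -3.35. For other genes it lay close, such as S100a4 at -3.28 and -3.33 and Klra8 at -1.67 and -1.77. Of 3 further Igf1 probes, the only one among the 16 had a fall of -4.82, a rise of 3.97 and a difference from control of -0.84. The 2 others were well above background on all control arrays, but on 1 and on none of the LPS_IFNg_emodin arrays and on no LPS_IFNg array. On the first the mean was -3.64 with emodin against -0.51 in control, and on the second the signal was at least 87.6-fold higher in control than in LPS_IFNg_emodin. The shortfall of Igf1 from control was thus much larger on them, and no rise can be measured there.

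The sizes of the differences depended on the scale. The spike-in RNAs, added in known amounts, differed by only -0.09 on the log2 scale between LPS_IFNg_emodin and LPS_IFNg arrays, while the median difference of all genes was -0.68 when scaled to them. On that scale the rise of the 98 genes had a median of 1.36 and a range from 0.86 to 5.37. All 98 were still above the LPS_IFNg mean, and 40 still met the limit of 1.5. The mean log2 spike-in signal was 14.04 to 14.26 on the LPS_IFNg_emodin arrays, 14.14 to 14.30 on the LPS_IFNg arrays and only 11.40 to 11.86 on the control arrays, which are on another slide. Scaled to spike-ins across both slides, an alternative added after the data were seen, the median LPS_IFNg_emodin minus control was -3.64 over the 98 genes and -3.28 over all genes, and 1 of the 98, Pgm5 at 1.14, was called higher than control and 97 lower. The calls against control given here therefore hold only relative to the 75th percentile of each array, and the part of the slide in the spike-in difference was not tested. With another background correction, normexp on the median spot signal, the rule gave 46 genes.

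The promoters of the genes were examined in RefSeq windows of assembly GRCm38.p6, each from 250 bases before to 50 bases after a transcript start. Vertebrate promoters fall into those rich in the dinucleotide CG, often broadly used, and those poor in it, often restricted to certain cells. Of the 98 genes, 72 had 1 or more windows. The ratio of observed to expected CG had a median of 0.368 in these windows, 0.583 in 456 windows of 349 genes that met the limit on the fall but not that on the rise, and 0.725 in 13032 windows of 10255 genes tested. It was under 0.5 in 55.1%, 43.2% and 28.7% of the windows of these sets. The shift towards CG-poor windows was thus present in both sets that fell, and further in the restored one, with no test made.

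**Figure D5:**
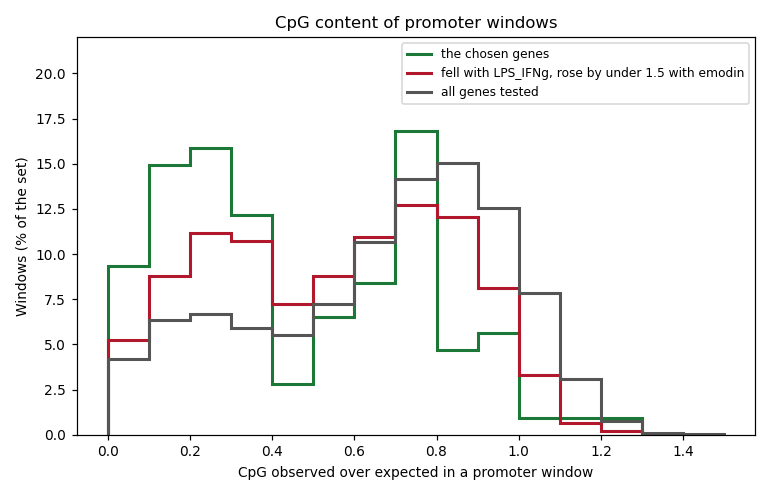
Share of promoter windows (vertical axis, % of the set) by the ratio of observed to expected CG (horizontal axis) for the 98 genes, the genes that met only the limit on the fall, and all genes tested. The 98 genes have more windows below 0.4 and fewer above 0.8 than all genes.

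To show this contrast, the 250 bases before the start of 4 genes described above are printed with each CG in capitals. Trem2 (chr17:48346151-48346400, plus strand) holds 4, Spp1 (the first of its 2 starts, chr5:104434861-104435110, plus strand) 3, Igf1 (chr10:87860861-87861110, plus strand) 5 and Cxcr4 (chr1:128592300-128592549, minus strand) 19.
Trem2: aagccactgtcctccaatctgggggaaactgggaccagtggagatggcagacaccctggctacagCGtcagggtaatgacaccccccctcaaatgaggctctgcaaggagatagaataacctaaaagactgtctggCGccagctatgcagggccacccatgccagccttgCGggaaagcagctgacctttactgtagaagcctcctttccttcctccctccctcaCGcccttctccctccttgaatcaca
Spp1: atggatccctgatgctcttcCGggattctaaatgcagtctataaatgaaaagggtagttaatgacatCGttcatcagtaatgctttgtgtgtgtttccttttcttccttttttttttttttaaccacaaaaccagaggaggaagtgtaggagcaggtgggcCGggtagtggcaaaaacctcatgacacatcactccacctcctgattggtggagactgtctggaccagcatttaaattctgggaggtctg
Igf1: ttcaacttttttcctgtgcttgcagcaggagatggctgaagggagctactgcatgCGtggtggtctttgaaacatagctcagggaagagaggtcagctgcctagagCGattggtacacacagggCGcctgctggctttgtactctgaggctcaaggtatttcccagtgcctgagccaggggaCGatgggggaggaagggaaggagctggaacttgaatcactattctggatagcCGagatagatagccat
Cxcr4: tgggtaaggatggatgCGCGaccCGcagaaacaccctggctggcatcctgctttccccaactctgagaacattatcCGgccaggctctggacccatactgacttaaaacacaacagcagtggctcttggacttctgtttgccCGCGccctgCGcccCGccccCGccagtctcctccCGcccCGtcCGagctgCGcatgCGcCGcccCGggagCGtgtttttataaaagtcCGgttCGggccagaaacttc

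In Trem2, Spp1 and Igf1 the few CG lie scattered, whereas those of Cxcr4 crowd into the part nearest the start. All 4 genes are among the 98, so neither kind of promoter was required for entry.

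Motifs were searched on both strands of the 300-base windows. The TATA box TATAAA occurred in 15.0% of the windows of the 98 genes, in 7.24% of those of the genes that met only the limit on the fall, and in 8.02% of all. The AP-1 site TGANTCA, bound by Fos, occurred in 10.3% (11 windows), 6.80% and 5.66%. The E-box CACGTG, bound by Myc and Tfeb, occurred in 7.48% (8 windows, some of them of the same gene), 10.1% and 9.64%. The D-box TTATGTAA of Dbp was rarer, in 1.87%, 0.658% and 0.591%, which are only 2, 3 and 77 windows. The cyclic AMP response element TGACGTCA occurred in 1.87%, 0.877% and 2.90%, which are 2, 4 and 378 windows. A direct repeat of AGGTCA with 1 base between the copies, bound by Pparg with its partner Rxr, occurred in no window of either set that fell and in 0.0384% of all. A match says only that the letters are there, and windows of one gene can overlap.

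Except for lysosome genes, mostly higher with emodin than in LPS_IFNg, other genes of the same pathways did not share one course. Of 24 genes of eicosanoid and lipid handling, which include Pparg and Fabp4, 10 were called higher and 8 lower in LPS_IFNg_emodin than in LPS_IFNg. Over all genes these shares were 34.8% and 37.3%. Against control 4 of the 24 were called higher and 17 lower, where 39% and 39.3% of all genes were. The fatty acid receptor Cd36 differed from control by -2.11 (log2) with emodin, the lipoprotein lipase Lpl by -2.24 and Apoe, which carries cholesterol out of macrophages, by 0.02, not called. All 24 lysosome genes were tested, Tfeb among them. With emodin 22 were called higher and 1 lower than in LPS_IFNg, where 34.8% and 37.3% of all genes were, and 17 were called higher and 5 lower than control. The changes were small, with a median of 0.55 against LPS_IFNg and a largest rise of 1.79, that of Tfeb itself. Neu1, a lysosomal sialidase, was 1.46 above control and Gaa, which degrades glycogen, 1.64.

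Of 17 tested genes of apoptotic cell uptake, among them Itgb3 and Stab2, 5 were called higher and 9 lower with emodin than in LPS_IFNg, where 34.8% and 37.3% of all genes were. The receptors Mertk and Axl fell by 1.74 and 3.16 in that comparison, opposite to the members. Of 16 tested genes of alternative activation, 6 were called higher and 6 lower than in LPS_IFNg. The chemokine Ccl22 was 4.23 higher there and Clec10a 0.90 higher, while Arg1 fell by 1.63. Of 23 tested genes of resident peritoneal macrophage identity none was among the 98, and with emodin 7 were called higher and 13 lower than in LPS_IFNg. Of 25 tested chemotactic and nucleotide receptors and RGS proteins, among them Cxcr4, C3ar1 and Rgs2, 6 were called higher and 13 lower.

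The macrophage label was checked against markers. Of 8 macrophage markers 7 were tested, all but Cd68, which no named probe covered. Their mean log2 level ran from 4.49 to 4.94 on LPS_IFNg_emodin arrays, from 5.14 to 5.29 on LPS_IFNg arrays and from 4.85 to 4.99 on control arrays. The markers did not move together. With emodin 2 were called higher and 4 lower than in LPS_IFNg (34.8% and 37.3% of all genes), from -2.77 to 0.89. Against control 3 were called higher and 3 lower (39% and 39.3% of all genes). Of 10 neutrophil markers 6 were tested. Their mean level ran from -1.21 to -0.77 with emodin, from -1.79 to -1.29 with LPS and IFNγ alone and from -0.99 to -0.55 in control, which is the order of the 98 genes. With emodin 4 of the 6 were called higher than in LPS_IFNg and 2 lower, with a median of 1.22, from -1.87 for Camp to 2.45 for S100a9. Over all genes 34.8% were called higher and 37.3% lower in that comparison. Neutrophil markers Ngp, Cxcr2 and Retnlg were not well above background on any stimulated array. Among control arrays, Cxcr2 and Retnlg were each well above background on 3 of 4, and Ngp on none. Of 11 mesothelial and fibroblast markers 10 were tested. With emodin 5 were called lower and none higher than in LPS_IFNg, opposite to the rise of the 98 genes. Against control 9 were called lower, where 39.3% of all genes were. The part of other cells in these results was not tested.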

How the data were processed

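Total RNA from peritoneal macrophage cultures was hybridised to 12 one-colour Agilent arrays, 4 per group. The deposited scanner files hold an intensity per spot, background-subtracted but not normalised between arrays. The software, per the submitters' processing notes, was Agilent Feature Extraction 10.7.3.1. The authors' deposited value table holds log2 values that followed the quantile-normalised scanner signal centred per probe, with column medians from -0.0316 to 0.0416. It was used as an alternative only. In it, the values under control 1 are those scanned as control 4, those under control 3 are control 1 and those under control 4 are control 3, a permutation within 1 group.

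Of 62976 spots per array, 78 to 415 with outlier flags were left out, spots of a probe were averaged, and each array's 75th percentile was subtracted from the log2 signal. Accessions beginning NM, without versions, were looked up in the RefSeq annotation of GRCm38.p6. This named 26166 of 55681 probes with 19699 symbols and left 29515 unnamed, none having several symbols. The array is annotated on mm9, so only the promoter windows carry coordinates, those of RefSeq. The brightest probe by its mean over the 12 arrays stood for a gene, and for 3300 genes several probes were above background. Genes above background on all arrays of 1 or more groups, 12733 in all, entered a limma fit (3.58.1, under R 4.3.3) with 3 group means on 12 arrays. Of the limma moderation, 9 degrees of freedom were residual and 2.52 prior. A call is a two-sided Benjamini-Hochberg adjusted p under 0.05 over all 12733 genes. The fit was tested on simulated data. The number of arrays limits the precision.

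The 98 genes, the role groups and 22 gene lists (14 by function, 8 by cell type) were chosen with earlier results of these data known. Any member may be named with its role and differences. Array values were considered for the members with the largest smaller-of-fall-and-rise, the highest and lowest differences from control, up to 4 members of each list and up to 6 of each role group. Other genes are named from the lists, up to 4 per list, or as the nearest on each side of a limit. The neutrophil markers named without a test were taken from their list.

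Samples with the same replicate number deviated together between LPS_IFNg_emodin and LPS_IFNg, with correlations from 0.139 to 0.290, but not between LPS_IFNg_emodin and control (-0.193 to 0.0566). Alternatives covered normalisation, background, filters, probes, the block on replicate number, spike-in scaling and the removal of each array.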

Additional observations from a re-analysis of the deposited data

Results flagged for a closer look

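Array values of 50 of the 98 genes were examined in each of the 3 groups for 1 array standing far from the other 3, by a test for a single outlier. In 7 of 150 groups 1 array stood apart, and chance alone gives about 1 in 20. Among LPS_IFNg_emodin arrays, Igf1 was highest on array 3 (5.28), and Dchs1 was highest on array 2 (-2.26). Among LPS_IFNg arrays, Cdca7 was lowest on array 3 (-2.82), and Tbc1d16 was highest on array 4 (-4.07), a group with none of its 4 arrays well above background. Control array 3 accounted for the other 3, being lowest for Cxcr1 (0.34) and highest for Gpx3 (0.35) and Tmod1 (-0.27). Control array 3 is one of the arrays that go against their sex labels, and without it the rule gave 97 genes, with 17 called higher and 46 lower than control with emodin.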

How the results depend on the processing

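The rule gave 95 to 112 genes under the other normalisations, filters, probe rules and choices of control, and 90 without the stimulated arrays numbered 3, except 67 where all 12 arrays had to be above background. It fell to 46 with normexp background correction of the median signal, an alternative added after the data were seen, and to 40 with spike-in scaling of the rise. Leaving out each array in turn gave 89 to 111 genes, the fewest without LPS_IFNg replicate 3 and the most without LPS_IFNg replicate 1. Of the 98 genes, 15 to 19 were then called higher and 43 to 49 lower than control with emodin, with a median difference of -0.42 to -0.34. Over the remaining settings, spike-in scaling aside, 13 to 21 were called higher and 36 to 54 lower, the lowest count of lower genes where 67 were tested. Spike-in scaling of all 12 arrays, added after the data were seen, left 1 called higher and 97 lower, with a median difference of -3.64. With a replicate block on all 12 arrays 17 were called higher and 49 lower. Quantile normalisation moved the median of all genes in LPS_IFNg_emodin minus control to -0.14, and the percentile over detected probes to -0.17. Of 66 calls, 49 held in each of the 25 settings other than spike-in scaling in which the gene was tested, 12 higher and 37 lower. Only 67 of the 98 genes were tested where all 12 arrays had to be above background. In these 25 settings directions turned for called genes only in Ifi27 and Tmem191c. Ifi27 was at -0.12 with quantile normalisation and -0.13 with the value table, and the cause was not tested. Tmem191c was at -0.21 with the mean of probes, which takes in a second probe that differed from control by -0.89. That probe was well above background on all control arrays and on no stimulated array. Normexp on the mean signal was not run, because that column is not among those of the scanner files used here.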

Other observations

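Gene lists without a direct bearing on the 98 genes also moved with emodin. Over all genes 34.8% were called higher and 37.3% lower than in LPS_IFNg. Against control these shares were 39% and 39.3%. Of 15 tested p53 targets 14 were called higher and none lower in LPS_IFNg_emodin than in LPS_IFNg, where 34.8% of all genes were called higher, and 12 were higher and 2 lower than control. Of 11 enzymes of H3K27 methylation 9 were called higher and 1 lower than in LPS_IFNg, with a median difference of 0.68. Of 21 tested cell cycle genes 4 were called higher and 12 lower, with a median of -1.06. Of 19 tested genes of classical activation 1 was called higher and 15 lower than in LPS_IFNg, and 18 were still higher than control, with a median of 5.70.

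The other lists were mixed in LPS_IFNg_emodin against LPS_IFNg. Among 24 genes of transforming growth factor beta signalling 7 were called higher and 13 lower, among 24 myeloid transcription factors 7 and 13, among 17 tested complement genes 5 and 8, and among 23 tested genes of cell adhesion and integrins 8 and 9. For markers of other cells, 3 of 3 tested for B cells and 3 of 4 for dendritic cells were called lower, 1 of 2 for T and NK cells and 1 of 4 for mast cells were called higher, and the single eosinophil marker tested was not called.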
